A study of Homo sapiens with 9 samples.

Results

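ME1 and 8 other enzymes that make NADPH, or that belong to the pentose phosphate pathway beside them, were followed in GM12878 cells exposed to sulforaphane. The 9 listed genes were ME1, ME2, IDH1, IDH2, PGD, PGLS, RPIA, TKT and TALDO1. A gene counted as measured where a transcript cluster of the array carried its symbol and no other, which held for 8 of the 9, out of 14232 genes measured in this way. TALDO1, the transaldolase, shared its only cluster with another gene and has no value here. Each of the 8 had a single such cluster.

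GM12878 is a human lymphoblastoid line, that is, B lymphocytes made immortal with Epstein-Barr virus, and all the data come from this line. Cells at 900000 per ml were harvested untreated at 0 h, after 8 h in 10 µM sulforaphane or after 24 h in 10 µM sulforaphane, with 3 cultures and 3 Affymetrix Human Exon 1.0 ST arrays at each time. Sulforaphane is an isothiocyanate found in cruciferous vegetables. The protocol also names a DMSO vehicle, but no array of cells kept for 8 or 24 h without sulforaphane was used here, so time in culture and treatment cannot be told apart in any comparison with 0 h.

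NADPH is the electron donor with which cells reduce glutathione and thioredoxin and build lipids and deoxynucleotides. In the cytosol it comes mainly from the oxidative steps of the pentose phosphate pathway, to which PGLS and PGD belong, and further from ME1, which decarboxylates malate to pyruvate, and IDH1, which decarboxylates isocitrate. ME2 and IDH2 run the same types of reaction in mitochondria, ME2 with NAD as its preferred acceptor. Sulforaphane modifies KEAP1, which otherwise holds NRF2 down, and this transcription factor, paired with a small MAF protein binds antioxidant response elements near its target genes. ME1, PGD, TKT and TALDO1 are known as NRF2 targets in other cell types.

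The sequences that bear on this are the element matches near the starts of these genes, taken from RefSeq promoter windows on GRCh38.p14 that run from 250 bases before a gene's start to 50 after it. The core TGACNNNGC was searched on both strands. It lay in the windows of ME1, PGD and IDH1, that is, in 3 of the 10 windows listed for the 9 genes (IDH1 has 2), against 13.3% of all 35116 windows. The 250 bases before the ME1 start (chr6:83431052-83431301, minus strand) are shown with the match in capitals, since ME1 was the member whose signal moved most, followed by 39-base stretches around the matches at IDH1 (chr2:208255191-208255229, minus strand) and PGD (chr1:10398848-10398886, plus strand).
ME1: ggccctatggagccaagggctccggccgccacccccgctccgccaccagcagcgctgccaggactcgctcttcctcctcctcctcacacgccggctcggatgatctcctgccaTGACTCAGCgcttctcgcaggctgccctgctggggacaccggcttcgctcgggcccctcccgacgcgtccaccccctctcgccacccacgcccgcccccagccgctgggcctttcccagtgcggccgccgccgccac
IDH1: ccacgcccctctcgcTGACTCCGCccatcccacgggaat
PGD: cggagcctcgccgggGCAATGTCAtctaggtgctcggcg
The ME1 match began 137 bases before the start on the gene's own strand, and a further match, GCACCGTCA, read on the opposite strand, began 11 bases past the start. The IDH1 match began 143 bases before the start on the gene's own strand and the PGD match 201 bases before it on the opposite strand. These matches describe letters in a window, and binding was not measured.

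Values are log2 RMA signals, so a difference of 1 is a doubling, and signals of different clusters are not compared in level. Array means lay between 7.97 and 8.14. Untreated replicate 2 stood apart, with a mean signal of 7.97 against 8.10 and 8.08 on the other untreated arrays, and the untreated group was the most variable (median SD over clusters 0.15 untreated, 0.091 for the 8 h and 0.092 for the 24 h cultures). Among B-cell markers, 7 of 8 were measured, with mean signals of 10.26 to 13.43, above at least 85.6% of clusters. Mean signals were 5.74 to 7.92 for 5 T-cell markers, 4.90 to 7.35 for 4 myeloid markers and 3.82 to 11.26 for 4 epithelial markers, of which KRT8 was the high one. Of the 8 enzymes, 6 had their lowest untreated value on untreated replicate 2 (ME1, PGD, RPIA, TKT, IDH1 and IDH2), and 6 had their highest 24 h value on 24 h replicate 1 (ME1, ME2, PGD, RPIA, TKT and IDH1), the array with the highest mean signal, 8.14. The part of array-wide level in the enzymes' values was not tested. Differences of the enzymes from untreated are therefore also given without untreated replicate 2 where they moved most.

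**Figure D1:**
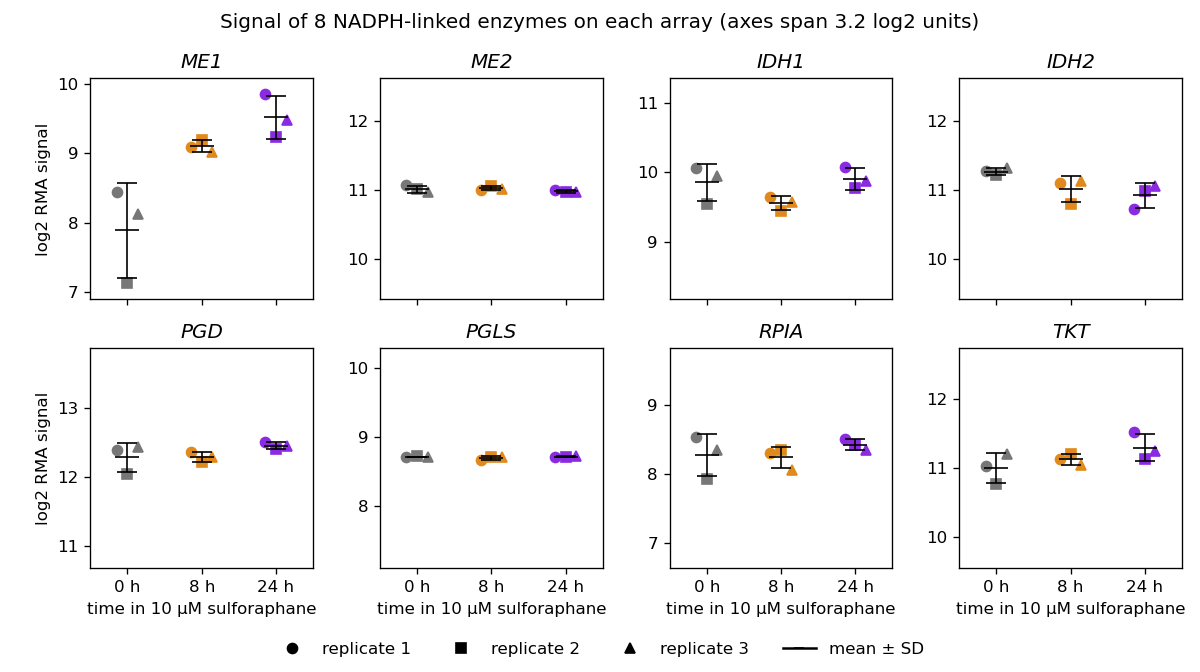
Log2 RMA signal (vertical axes, all spanning 3.2 log2 units) of the 8 measured enzymes on each of the 9 arrays, by time in 10 µM sulforaphane; points are arrays, with the replicate shown by symbol, and bars are mean ± SD of 3 arrays. ME1 spans 2.74 log2 units over the arrays and no other enzyme more than 0.741.

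The cytosolic malic enzyme changed most. ME1 (cluster 2962820) had log2 signals of 8.44, 7.12 and 8.12 on the untreated arrays, 9.10, 9.19 and 9.03 at 8 h, and 9.86, 9.24 and 9.48 at 24 h. All 6 arrays of treated cells lay above the 3 untreated arrays, and the 24 h arrays lay above the 8 h arrays, by a margin of 9.24 against 9.19. Its mean was 9.53 ± 0.31 at 24 h and 7.89 ± 0.69 untreated (SD, n = 3 each), a rise of 1.64 ± 0.31 (SE; 95% interval 0.92 to 2.35), or 3.11-fold, at an adjusted p of 0.048 in limma. In a mixed measure of RNA from many cells, more cells with ME1 RNA and more ME1 RNA per cell cannot be told apart.

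At 8 h the ME1 mean was 9.11 ± 0.08 against 7.89 ± 0.69 untreated, a difference of 1.22 ± 0.31 or 2.32-fold that did not pass over all clusters (adjusted p = 0.13, unadjusted p = 0.0044). From 8 h to 24 h the difference was 0.42 ± 0.31 (95% interval -0.30 to 1.14, adjusted p = 0.70). The spread behind this SE is shared by all 9 arrays, so the untreated arrays enter it too. Beyond that shared spread, the order of the 2 treated times was not settled. By size, the 24 h difference was the 10th largest rise among 22011 clusters and the 8 h difference the 58th. ME1 was also among the more variable clusters: its standard deviation in the fit was 0.38 against a median of 0.13, above 95.6% of clusters, and most of that spread came from the untreated arrays.

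Leaving out single arrays changed both the ME1 call and the size of its difference. Without untreated replicate 2, the 24 h difference was 1.25 ± 0.18 (2.38-fold, adjusted p = 0.032) and the 8 h difference 0.83 ± 0.18 (adjusted p = 0.093). Without untreated replicate 1, the differences were 1.91 ± 0.29 at 24 h (adjusted p = 0.034) and 1.49 ± 0.29 at 8 h (adjusted p = 0.0498). The 24 h difference missed the threshold without untreated replicate 3 (1.75 ± 0.36, adjusted p = 0.12), without 8 h replicate 1, 2 or 3 (adjusted p = 0.0998, 0.075 and 0.089), which enter only through the shared spread, and without 24 h replicate 1, 2 or 3 (adjusted p = 0.18, 0.0898 and 0.14). It stayed between 1.25 and 1.91 in all 9 of these fits.

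**Figure D2:**
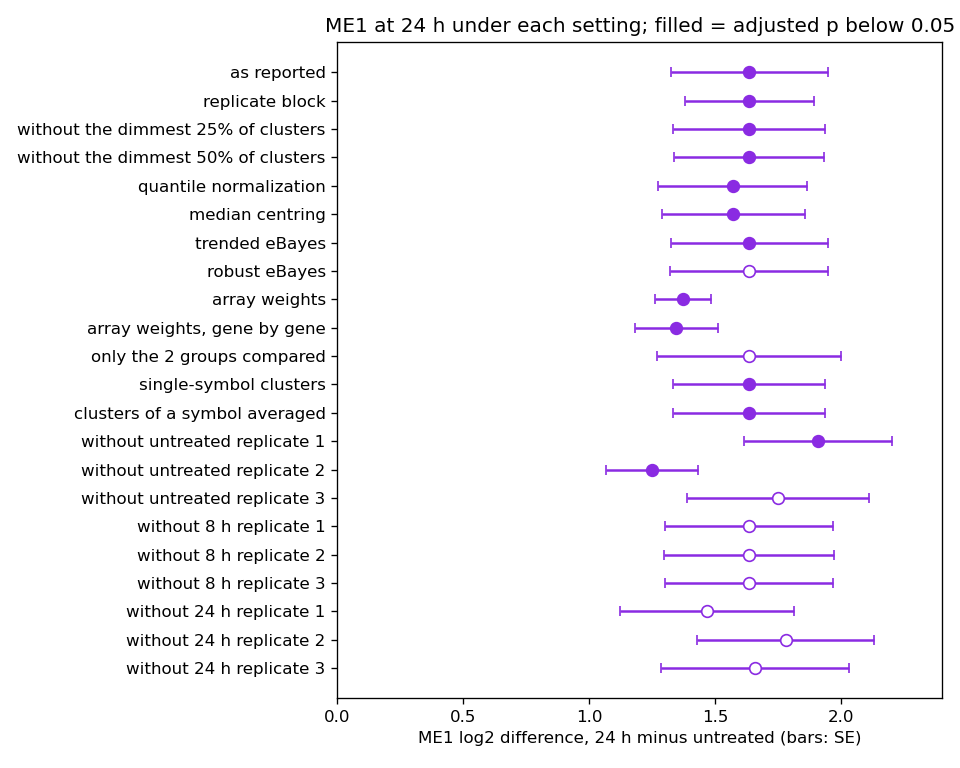
ME1 log2 difference between 24 h and untreated cells (horizontal axis, bars are SE) as reported and under each alternative setting or omitted array; filled points have an adjusted p below 0.05. Every difference lies between 1.25 and 1.91, while the adjusted p passes the threshold under some settings only.

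ME2, the mitochondrial malic enzyme (cluster 3788220), had log2 signals of 11.07, 11.01 and 10.97 untreated, 11.01, 11.06 and 11.01 at 8 h, and 11.01, 10.97 and 10.98 at 24 h. The groups overlapped at every time and the 9 arrays spanned 0.101 log2 units. Its difference at 24 h was -0.03 ± 0.05 (95% interval -0.16 to 0.09, adjusted p = 0.73) and at 8 h 0.01 ± 0.05 (95% interval -0.11 to 0.13, adjusted p = 0.94). Changes beyond 1.10-fold up at 8 h, and beyond 1.06-fold up at 24 h, thus lay outside the interval. Relative to each gene's own untreated mean, ME1 exceeded ME2 by 1.22, 1.26 and 1.14 log2 units on the 8 h arrays and by 1.98, 1.39 and 1.63 on the 24 h arrays, while the untreated arrays ran from -0.77 to 0.49. This contrast of the 2 genes was described and not tested.

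Among the isocitrate dehydrogenases, IDH1, the cytosolic enzyme (cluster 2597010), had log2 signals of 10.07, 9.55 and 9.95 untreated, 9.65, 9.44 and 9.58 at 8 h, and 10.08, 9.77 and 9.88 at 24 h. The 8 h arrays were low: all 3 were below the 24 h arrays and below untreated replicates 1 and 3, and 8 h replicate 2 was also below untreated replicate 2. At 8 h its mean was 9.56 ± 0.11 against 9.86 ± 0.27 untreated (SD, n = 3 each), a difference of -0.30 ± 0.14 (adjusted p = 0.36), which was -0.45 ± 0.11 without untreated replicate 2 (adjusted p = 0.11). The difference from 8 h to 24 h was 0.36 ± 0.14 (95% interval 0.03 to 0.68, unadjusted p = 0.037, adjusted p = 0.43). At 24 h against untreated it was 0.05 ± 0.14 (95% interval -0.27 to 0.38, adjusted p = 0.83), and its sign turned to -0.10 without untreated replicate 2. None of the IDH1 differences passed.

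IDH2, the mitochondrial NADP-linked enzyme (cluster 3638760), had log2 signals of 11.27, 11.21 and 11.31 untreated, 11.10, 10.79 and 11.13 at 8 h, and 10.72, 10.98 and 11.06 at 24 h. All 6 treated arrays were below all 3 untreated arrays. The mean at 24 h was 10.92 ± 0.18 against 11.27 ± 0.05 untreated, a difference of -0.35 ± 0.12 (95% interval -0.61 to -0.08, unadjusted p = 0.018), and it did not pass over all clusters (adjusted p = 0.18). At 8 h the difference was -0.26 ± 0.12 (95% interval -0.53 to 0.01, adjusted p = 0.35). Measured from each gene's untreated mean, IDH1 minus IDH2 was -0.04, 0.06 and -0.15 at 8 h and 0.77, 0.20 and 0.22 at 24 h, with -0.25 to 0.20 on the untreated arrays, so 24 h replicate 1 carried most of the gap between the pair. This contrast was not tested either.

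In the oxidative branch of the pentose phosphate pathway, PGD, the dehydrogenase that releases NADPH and ribulose 5-phosphate (cluster 2319802), had log2 signals of 12.39, 12.05 and 12.43 untreated, 12.37, 12.22 and 12.30 at 8 h, and 12.51, 12.41 and 12.46 at 24 h. The 24 h arrays were all above the 8 h arrays and overlapped the untreated ones. Its difference was 0.17 ± 0.10 at 24 h against untreated (95% interval -0.07 to 0.41, adjusted p = 0.37) and 0.01 ± 0.10 at 8 h (adjusted p = 0.98). Without untreated replicate 2, the low untreated array, these were 0.05 ± 0.06 and -0.11 ± 0.06 (adjusted p = 0.78 and 0.50).

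PGLS, the lactonase that acts just before PGD (cluster 3824395), gave the value 8.72 on 6 of the 9 arrays to all deposited digits, and 8.72, 8.67 and 8.73 on untreated replicate 2, 8 h replicate 1 and 24 h replicate 3. Equal values across arrays were common in the deposited table: 38.4% of clusters had at least 2 equal arrays. The PGLS differences lay between -0.02 and 0.02, with a 95% interval at 24 h of -0.11 to 0.11 (adjusted p = 0.97). Its SD was 0.0043 untreated, 0.026 at 8 h and 0.0094 at 24 h, against 0.060 in the moderated fit. The width of the interval thus comes mostly from the moderation, and with so many equal values it is no measured bound on change.

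In the branch that interconverts sugar phosphates without making NADPH, RPIA, the ribose 5-phosphate isomerase (cluster 2492938), had log2 signals of 8.53, 7.93 and 8.35 untreated, 8.31, 8.35 and 8.06 at 8 h, and 8.51, 8.41 and 8.35 at 24 h. The 24 h arrays lay above the 8 h arrays only at the third decimal, with 8.348 against 8.347 as the closest values, and 24 h replicate 3 and untreated replicate 3 had the same value. RPIA differed by 0.15 ± 0.15 at 24 h (adjusted p = 0.55) and -0.03 ± 0.15 at 8 h (adjusted p = 0.93). Without untreated replicate 2, the 24 h difference was -0.02 ± 0.11 (adjusted p = 0.96) and the 8 h difference -0.20.

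TKT, the transketolase that links the pathway to glycolysis (cluster 2676671), had log2 signals of 11.03, 10.78 and 11.21 untreated, 11.14, 11.21 and 11.04 at 8 h, and 11.52, 11.13 and 11.24 at 24 h. The highest value was on 24 h replicate 1, and the groups overlapped. Its mean was 11.30 ± 0.20 at 24 h against 11.01 ± 0.22 untreated (SD, n = 3 each), a difference of 0.29 ± 0.13 (95% interval -0.01 to 0.60, unadjusted p = 0.057, adjusted p = 0.26). Without untreated replicate 2 that difference was 0.18 ± 0.12 (adjusted p = 0.54). The 8 h difference was 0.13 ± 0.13 (adjusted p = 0.66), and 0.01 without untreated replicate 2.

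**Figure D3:**
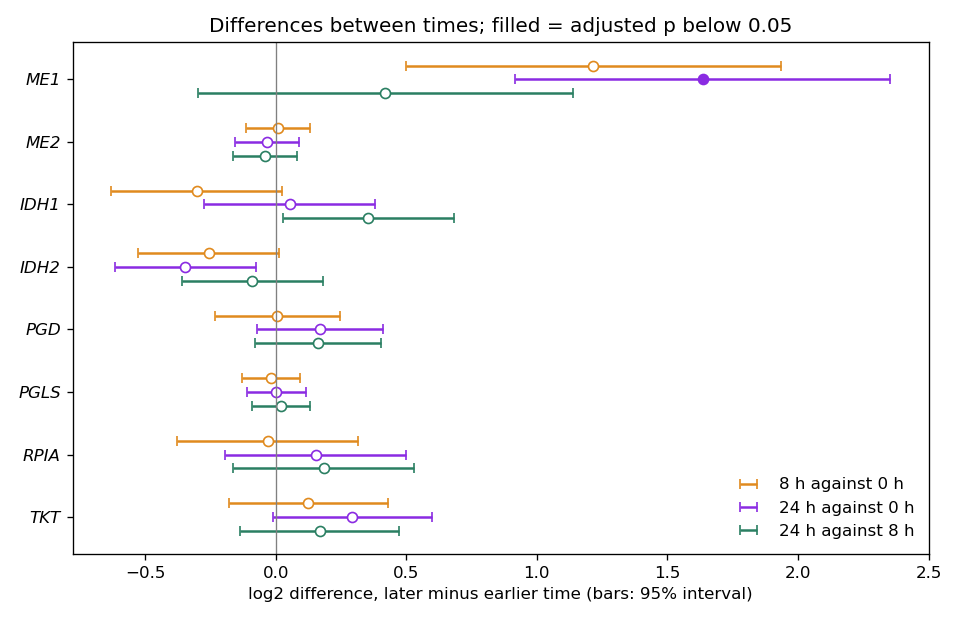
Log2 difference of each measured enzyme (horizontal axis, bars are 95% intervals) in each of the 3 comparisons between times; filled points have an adjusted p below 0.05. The ME1 difference at 24 h, 1.64, is the 1 filled point, and the ME1 intervals are the widest.

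Counted over the 8 measured enzymes, 1 rose at 24 h (ME1), 0 fell and 7 did not pass. Over all 22011 clusters, 1.62% were called in that comparison in either direction and 0.831% were called as rises. At 8 h, 0 of 8 were called by limma, against 0.595% of clusters. From 8 h to 24 h, 0 of 8 were called, against 0.327% of clusters. The F-test for any difference among the 3 times called 0 of 8 (adjusted p = 0.076 for ME1 and 0.26 for IDH2), against 1.35% of clusters. At an unadjusted p under 0.05 there was 1 of 8 at 8 h (ME1), where 15.1% of all clusters were below it, and 2 of 8 at 24 h (ME1 and IDH2), where 20.4% were. There was 1 of 8 from 8 h to 24 h (IDH1), where 10.4% of all clusters were below it, and 2 of 8 in the F-test (ME1 and IDH2), where 18.2% were.

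Arrays of the 2 groups did not overlap for 2 of 8 enzymes at 8 h (ME1 and IDH2) where this held for 17.6% of all clusters, for the same 2 at 24 h where it held for 24.3%, and for 4 of 8 from 8 h to 24 h (ME1, PGD, RPIA and IDH1) where it held for 21.6%. The median difference over the 8 enzymes was -0.01 at 8 h, 0.10 at 24 h and 0.17 from 8 h to 24 h, beside -0.01, 0.02 and 0.02 over all clusters. With 8 genes, these shares describe the enzymes and set nothing apart about the group. The comparisons with 0 h share their untreated arrays, so agreement between them is not independent.

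The genes whose signals most resembled that of ME1 were found by Pearson correlation over the 9 arrays among 3723 genes whose standard deviation was at least 0.2. They were CLIP4, a member of the CAP-Gly linker family (r = 0.993), CREBRF, a regulator of the factor CREB3 (r = 0.991), GCLC, the catalytic subunit of glutamate-cysteine ligase (r = 0.991), RNF146, a ubiquitin ligase (r = 0.986), and CD80, a costimulatory surface protein of B cells (r = 0.986). GCLC had signals of 8.22, 7.58 and 8.08 untreated, 8.80, 8.74 and 8.65 at 8 h, and 9.17, 8.68 and 8.84 at 24 h. Like ME1, each of the 5 was lowest on untreated replicate 2 and highest on 24 h replicate 1, so the likeness holds features of single arrays as well as the times. Over the 8 arrays without untreated replicate 2, CLIP4, GCLC and CREBRF were still the 3 closest (r = 0.984, 0.983 and 0.980), while RNF146 and CD80 were ranked 12 and 11. At 24 h GCLC rose by 0.94 ± 0.18 (adjusted p = 0.047), and CLIP4 (0.99 ± 0.21), CREBRF (0.88 ± 0.18), RNF146 (0.94 ± 0.20) and CD80 (0.60 ± 0.16) had adjusted p of 0.061, 0.061, 0.068 and 0.11. The 5 genes were picked for their likeness to ME1 on these same arrays. Differences in the direction of ME1 follow from that choice, so these p-values are descriptive and add no separate evidence.

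**Figure D4:**
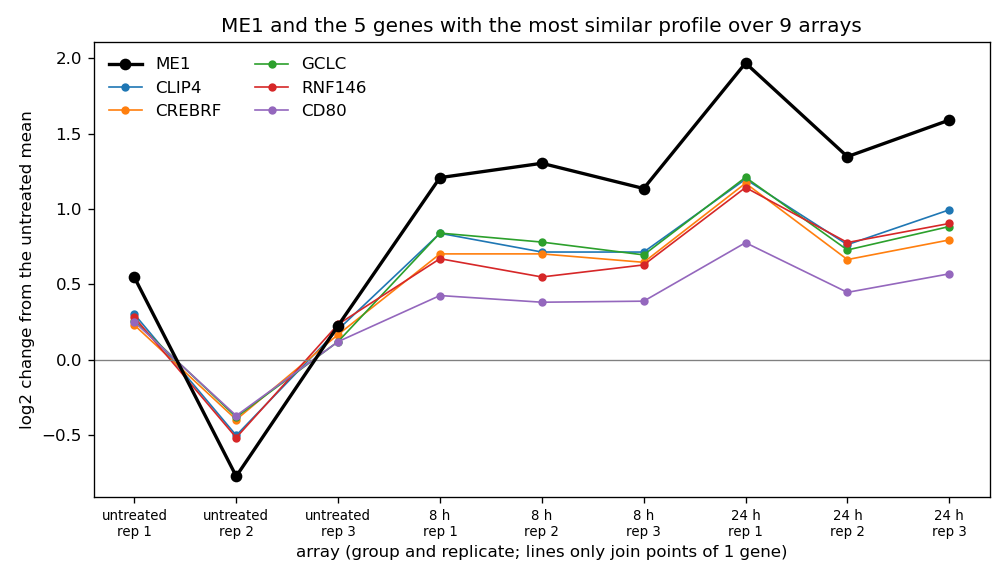
Log2 change from the untreated mean (vertical axis) of ME1 and of the 5 genes with the highest Pearson correlation with it, on each array (horizontal axis, lines join the points of 1 gene). All 6 genes are lowest on untreated replicate 2 and highest on 24 h replicate 1, and ME1 has the widest range.

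Related genes were taken from 3 lists. Among other enzymes of the pentose phosphate pathway and of NADPH supply, 14 of 22 had a cluster of their own. None of the 14 was called in any comparison by limma, where 0.595% of all clusters were called at 8 h, 1.62% at 24 h and 0.327% from 8 h to 24 h. Their median difference was -0.07 at 8 h and 0.05 at 24 h, beside -0.01 and 0.02 over all clusters. The smallest p-values belonged to MTHFD1 and H6PD. MTHFD1, a cytosolic folate enzyme with an NADP-dependent dehydrogenase activity, had signals of 10.70, 10.65 and 10.57 untreated, 10.23, 9.99 and 10.27 at 8 h, and 9.95, 10.21 and 10.22 at 24 h. All its treated arrays were below the untreated arrays, with a difference of -0.51 ± 0.10 at 24 h (adjusted p = 0.056) and -0.47 ± 0.10 at 8 h (adjusted p = 0.086). Arrays of the groups did not overlap for 24.3% of all clusters at 24 h and 17.6% at 8 h. H6PD, which oxidises glucose 6-phosphate inside the endoplasmic reticulum, had signals of 9.21, 8.91 and 9.26 untreated, 8.96, 8.75 and 8.91 at 8 h, and 9.54, 9.24 and 9.44 at 24 h. It was higher at 24 h than at 8 h on every array, by 0.53 ± 0.12 (adjusted p = 0.16), and 21.6% of all clusters did not overlap in that comparison.

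Of 30 enzymes that consume NADPH, 18 were measured. In each comparison 1 of the 18 was called: TXNRD1 rose at 8 h, DHCR7 fell at 24 h and TM7SF2 rose from 8 h to 24 h. Over all clusters the shares called were 0.595%, 1.62% and 0.327%. TXNRD1, the cytosolic thioredoxin reductase, had signals of 8.84, 8.54 and 8.62 untreated, 9.58, 9.28 and 9.67 at 8 h, and 9.22 on all 3 arrays at 24 h. Its rise at 8 h was 0.84 ± 0.11 (adjusted p = 0.022), and at 24 h the difference was 0.55 ± 0.11 (adjusted p = 0.058). The 3 equal values at 24 h add no spread to the shared SE of both differences, and in a fit of the 8 h and untreated arrays alone the 8 h difference was 0.84 ± 0.13 and did not pass (adjusted p = 0.14). DHCR7, the last reductase of cholesterol synthesis, had signals of 10.70, 10.63 and 10.64 untreated, 10.28, 10.13 and 10.38 at 8 h, and 10.04, 9.98 and 10.12 at 24 h. It fell at 24 h by 0.61 ± 0.08 (adjusted p = 0.017), and at 8 h the difference was -0.40 ± 0.08 (adjusted p = 0.067). The 24 h difference did not pass in a fit of only those 2 groups (adjusted p = 0.055). TM7SF2, a sterol reductase of the same route, rose from 8 h to 24 h by 0.40 ± 0.05 (adjusted p = 0.033), with signals of 9.63, 9.61 and 9.64 at 24 h against 9.24, 9.16 and 9.27 at 8 h. Its untreated signals of 9.40, 9.45 and 9.42 lay between the 2. Against untreated, the difference was -0.20 ± 0.05 at 8 h (adjusted p = 0.14) and 0.20 ± 0.05 at 24 h (adjusted p = 0.11), and neither passed. The call from 8 h to 24 h was lost with quantile normalization (0.33 ± 0.09, adjusted p = 0.20), with median centring (adjusted p = 0.072) and in a fit of only the 8 h and 24 h arrays (adjusted p = 0.059). Of the 9 fits that each left out 1 array, TXNRD1 passed in 3, DHCR7 in 4 and TM7SF2 in 2. The list's median difference was -0.07 at 8 h, 0.05 at 24 h and 0.11 from 8 h to 24 h, beside -0.01, 0.02 and 0.02 over all clusters.

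Enzymes and carriers of the citrate cycle supply the malate and isocitrate that ME1 and IDH1 use. Of 23 listed, 19 were measured and 0 were called in any comparison by limma, against 0.595%, 1.62% and 0.327% of all clusters at 8 h, at 24 h and from 8 h to 24 h. The medians were -0.02 at 8 h, -0.11 at 24 h and 0.07 from 8 h to 24 h, beside -0.01, 0.02 and 0.02 over all clusters. SLC25A11, the mitochondrial carrier that exchanges malate for 2-oxoglutarate, had signals of 10.64, 10.56 and 10.72 at 8 h against 11.05, 10.98 and 10.95 untreated, a difference of -0.36 ± 0.06 (adjusted p = 0.054). ACLY, which splits cytosolic citrate, had signals of 10.81, 10.75 and 10.85 at 24 h against 11.08, 11.03 and 11.02 untreated, a difference of -0.24 ± 0.06 (adjusted p = 0.080). Both differences had non-overlapping arrays, as 17.6% of all clusters did at 8 h and 24.3% at 24 h, and neither passed.

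**Figure D5:**
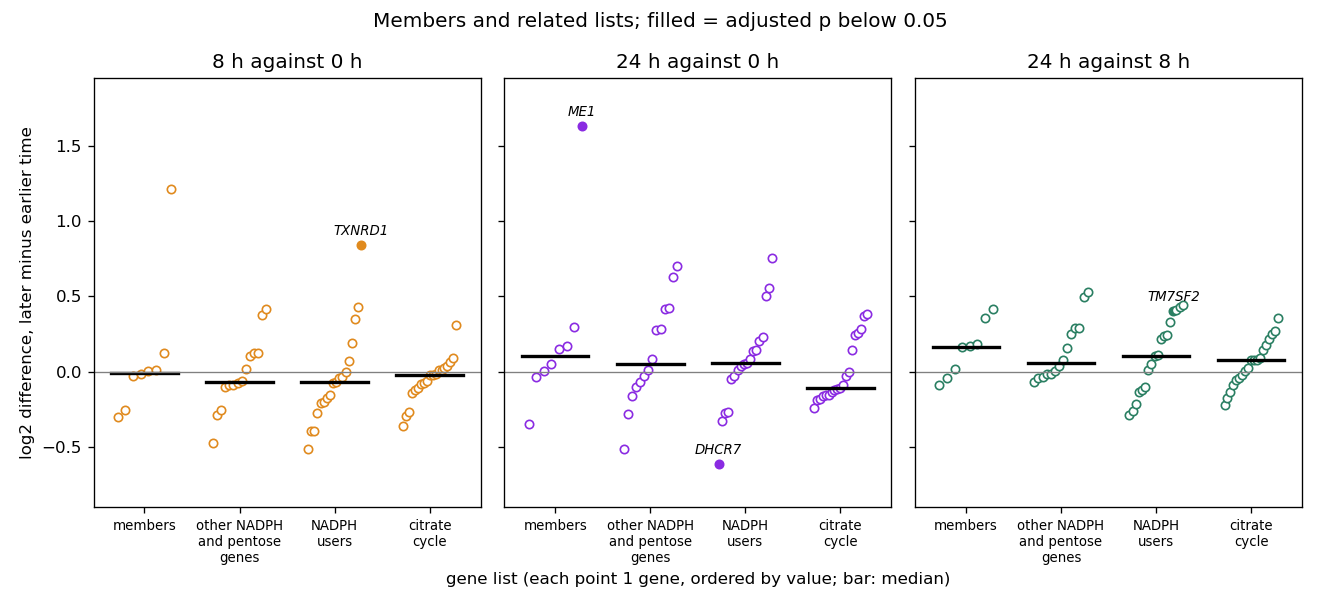
Log2 difference of every measured gene (points, ordered by value) among the 8 enzymes and the 3 related lists in each comparison, with list medians as bars; filled points have an adjusted p below 0.05. The filled points are TXNRD1 at 8 h, ME1 and DHCR7 at 24 h, and TM7SF2 from 8 h to 24 h.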

How the data were processed

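The authors deposited a log2 signal for every core transcript cluster on every array. Per the labels and the design text, Expression Console from Affymetrix was used for RMA at gene level with sketch-quantile normalization. For its version, annotation and genome build the entry is "not given in the sources used here", and scanner files were not used here, so background correction was not varied. Genes were named from GEO's platform annotation: of 22011 clusters, 14432 had 1 symbol, 2408 several and 5171 none.

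In R 4.3.3, limma 3.58.1 fitted 1 mean per group over all 9 arrays to every cluster. Two-sided moderated tests were adjusted by Benjamini-Hochberg over all clusters and called below 0.05. The script was tested on simulated data. Alternatives were filters on dim clusters, other scalings, trended and robust eBayes, array weights, a replicate block, fits of 2 groups and fits without each array.

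The 9 genes, the related lists and the tests were chosen with earlier results of these data known. All members are named. Also named are at most 4 called genes per related list (failing any, the 2 of lowest p) and the 5 genes most like ME1. Arrays give no counts, and their number limits the precision.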

Additional observations from a re-analysis of the deposited data

How the results depend on the processing

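Deviations of same-numbered arrays correlated between -0.137 and 0.394, above 0.1 in 3 of 9 pairs. Those of differently numbered arrays correlated between -0.425 and 0.134, above 0.1 in 3 of 18 pairs. The highest values were 0.394 for 24 h and untreated replicate 1 and 0.376 for 24 h and untreated replicate 2. Whether the replicate numbers pair the cultures was not tested, and the fit as reported did not use them. With a replicate block, ME1 was still called at 24 h (adjusted p = 0.046), and 85, 378 and 44 clusters were called at 8 h, at 24 h and from 8 h to 24 h, against 131, 357 and 72 as reported. The call of TM7SF2 from 8 h to 24 h was lost with the block (adjusted p = 0.084).

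Number of enzymes called. At 24 h the count of 1 became 0 with robust eBayes (ME1 adjusted p = 0.052) and in a fit of only the 2 groups compared (adjusted p = 0.16), and 2 with array weights (ME1 and IDH2), whose estimate stopped before convergence. Array weights called 9010 of all 22011 clusters at 24 h. At 8 h the count of 0 became 3 with array weights (ME1, IDH1 and IDH2) and 2 with weights fitted gene by gene (ME1 and IDH1), an alternative added after seeing the data. Of all 22011 clusters, these fits called 9603 and 1703 at 8 h, so the counts set nothing apart about the enzymes. Leaving out each array in turn gave 0 to 1 at 8 h and at 24 h. The ME1 difference at 24 h passed in 10 of 12 other alternatives and in 2 of 9 fits without 1 array, with adjusted p from 0.00020 to 0.18.

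Clusters called. At 8 h there were 302 and 312 without the dimmest 25% and 50% of clusters, 390 with quantile normalization, 288 with median centring, 9603 and 1703 with the 2 kinds of array weights, 9 with only 2 groups and 215 among single-symbol clusters. At 24 h there were 560 with quantile normalization, 9010 and 1889 with weights, and 20 with only 2 groups. From 8 h to 24 h there were 115 without the dimmest 50%, 109 with quantile normalization, 1516 and 1325 with weights, and 25 with only 2 groups. Leaving out each array gave 9 to 654, 21 to 768 and 4 to 160. Rises made up 51.3% of calls at 24 h as reported, 38.6% with quantile normalization and 40.0% with median centring. The cause of these shifts was not tested.

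Sign changes, none in a called difference. At 8 h, ME2 was -0.037 with quantile normalization and -0.013 with median centring, PGD -0.033, -0.016, -0.090 and -0.078 with these and the 2 weights, and TKT -0.084 and -0.031 with the weights. At 24 h, ME2 was 0.0091 with array weights, PGLS -0.11 and -0.060 with quantile normalization and centring, and IDH1 -0.069, -0.0092, -0.068 and -0.075 with these and the weights. From 8 h to 24 h, PGLS was -0.047 and -0.020 with quantile normalization and centring. Without 1 array, ranges that crossed 0 at 8 h were -0.014 to 0.037 for ME2, -0.11 to 0.077 for PGD and -0.20 to 0.099 for RPIA. At 24 h they were -0.0025 to 0.0057 for PGLS, -0.016 to 0.28 for RPIA and -0.0995 to 0.16 for IDH1, and from 8 h to 24 h -0.20 to 0.012 for IDH2.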

Other observations

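Calls among the related genes moved in both directions. TXNRD1 at 8 h, DHCR7 at 24 h and TM7SF2 from 8 h to 24 h were each lost in a fit of only the 2 groups compared and in some fits without 1 array, and TM7SF2 also with a replicate block, quantile normalization and median centring. Some differences not called as reported passed under several alternatives. At 24 h these were the differences of MTHFD1, TXNRD1 and ACLY, and at 8 h those of MTHFD1, SLC25A11 and DHCR7. Others passed only with array weights of either kind. A pass with array weights sets little apart, since that fit, stopped before convergence, called 9603 of 22011 clusters at 8 h and 9010 at 24 h. Weights fitted gene by gene also called more clusters than reported. MTHFD1 fell at 24 h without the dimmest 25% or 50% of clusters, with quantile normalization, median centring or either kind of array weights, among single-symbol clusters, with clusters of a symbol averaged, and without 8 h replicate 2. SLC25A11 and DHCR7 fell at 8 h under the same settings other than the last. TXNRD1 rose at 24 h under all the settings named for MTHFD1 and without untreated replicate 1. ACLY fell at 24 h with median centring and with either kind of array weights. The 8 h fall of MTHFD1 passed without the dimmest 50% of clusters and with either kind of array weights.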
